A study of Homo sapiens with 9 samples.

Results

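SIK1, PCK1 and RCAN1, genes known as targets of cAMP and calcium signalling, were followed across HEK293 cells, an established line grown out of human embryonic kidney, in 3 groups of 3 arrays. They were taken by gene symbol from the annotation of the array platform, which gave 1 probe set for each gene, 3 in all of 53617. SIK1 and PCK1 are known targets of the transcription factor CREB, and RCAN1 is a known target of the calcium-dependent phosphatase calcineurin and its transcription factor NFAT. The agonist group held cells with a GPR39 overexpression label that were given TC-G-1008, a synthetic agonist of that receptor, at 1 uM. The GPR39 group held cells with the same receptor label and 0.03 mg/mL cumate, a compound that induces genes placed under a cumate-controlled promoter. The mock group held naive HEK293 cells without cumate. It is not stated in the labels whether cumate was also given to the agonist group, how the receptor was introduced, whether the cells were 1 clone, or how long any exposure lasted, and no group had cumate or agonist without the receptor label. Receptor label and cumate therefore cannot be told apart in GPR39 against mock, nor agonist and a possible lack of cumate in agonist against GPR39. The labels call the replicates biological without saying whether they were separate cultures, so the p-values reflect only how much these arrays varied, which may be technical.

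GPR39 belongs to the G protein-coupled receptors and responds to zinc. A receptor that couples to Gs raises cAMP, which activates protein kinase A, and the kinase phosphorylates CREB bound at cAMP response elements (CREs). A receptor that couples to Gq releases calcium from the endoplasmic reticulum through phospholipase C, and calcium with calmodulin activates calcineurin, which dephosphorylates NFAT and lets it enter the nucleus. SIK1 encodes a salt-inducible kinase that phosphorylates CREB coactivators of the CRTC family and so acts as a feedback brake. PCK1 encodes cytosolic phosphoenolpyruvate carboxykinase, a rate-controlling enzyme of gluconeogenesis in liver and kidney proximal tubule. RCAN1 encodes a regulator that binds and inhibits calcineurin. CREB is also phosphorylated by kinases other than protein kinase A, so transcripts of its targets are no direct measure of cAMP.

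In the RefSeq genes of assembly GRCh38.p14, SIK1 lies on chromosome 21 from 43414483 to 43427131, RCAN1 on chromosome 21 from 34516442 to 34615113 and PCK1 on chromosome 20 from 57561110 to 57568121. SIK1B is a synonym of SIK1 in that table and had no probe set under its own symbol, so the signal is given under SIK1 alone. RCAN1 has 8 curated RefSeq transcripts and 6 listed start sites, and its probe set carries the accession of only 1 of those transcripts, so which transcripts its probes read is uncertain. Promoter sequences reached from 250 bases before to 50 bases after a start site. They were searched on both strands for the palindromic CRE TGACGTCA, for its half-site TGACG, which reads CGTCA on the other strand, for the NFAT core GGAAAA and for the TATA box TATAAA. The full CRE overlaps 2 half-sites. The SIK1 window at chr21:43427082-43427381, minus strand, and the RCAN1 windows at chr21:34526773-34527072 and at chr21:34615064-34615363, both minus strand, are shown. The RCAN1 windows are its CRE-holding and its most upstream promoter. SIK1 was higher with the agonist than in either other group. RCAN1 was lower with it than in the GPR39 group and higher than in mock. Capitals mark the CRE and its half-sites, and all sequences run 5′ to 3′.
SIK1: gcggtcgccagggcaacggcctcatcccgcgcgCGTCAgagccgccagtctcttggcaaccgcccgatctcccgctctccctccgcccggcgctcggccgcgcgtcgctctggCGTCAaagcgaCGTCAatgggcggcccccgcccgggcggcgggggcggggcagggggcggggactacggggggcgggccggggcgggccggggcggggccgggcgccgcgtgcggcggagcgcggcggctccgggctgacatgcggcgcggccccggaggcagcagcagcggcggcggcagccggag
RCAN1 with CRE: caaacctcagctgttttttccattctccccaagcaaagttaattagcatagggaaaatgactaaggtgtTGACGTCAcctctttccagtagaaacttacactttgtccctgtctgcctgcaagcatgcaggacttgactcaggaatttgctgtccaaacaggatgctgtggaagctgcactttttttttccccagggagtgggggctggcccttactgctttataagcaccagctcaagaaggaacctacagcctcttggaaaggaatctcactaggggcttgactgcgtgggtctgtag
RCAN1 most upstream: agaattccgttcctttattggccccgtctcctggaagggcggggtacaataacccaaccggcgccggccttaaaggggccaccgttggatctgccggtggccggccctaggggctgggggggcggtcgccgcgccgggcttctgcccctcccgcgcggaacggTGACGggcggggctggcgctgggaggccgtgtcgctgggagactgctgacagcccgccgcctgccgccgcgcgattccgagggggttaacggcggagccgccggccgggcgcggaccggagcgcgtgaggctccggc

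The SIK1 window held 3 half-sites, at positions -217, -137 and -126 from the start site, and no full CRE, NFAT core or TATA box. Of all 35116 RefSeq promoter windows, 24.6% held at least 1 half-site and 0.718% held at least 3 without a full CRE. One RCAN1 window, labelled window 4 in the plot of motif matches, held a full CRE at position -181. It also held 3 NFAT cores, at -235, -199 and -65. Its TATA box match, at -31, lay on the strand opposite to the one printed. A full CRE was found in 1.85% of all windows, at least 1 NFAT core in 24.0% and a TATA box on either strand in 11.5%. A CRE with at least 3 NFAT cores was found in 0.0171%, which is 6 windows. The combinations counted for SIK1 and for window 4 repeat what those windows held, and window 4 was 1 of 6 for RCAN1. Their low shares therefore carry no test. The most upstream RCAN1 window held 1 half-site. PCK1 was matched to no promoter sequence. These matches describe letters, and binding was not measured.

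**Figure D1:**
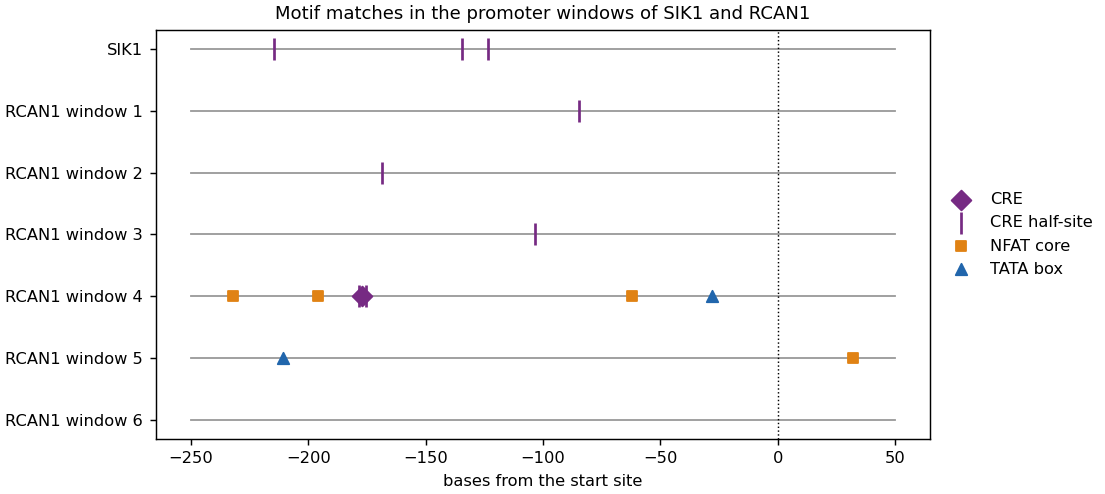
Positions of motif matches in the SIK1 promoter window and the 6 RCAN1 windows, in bases from each start site on the horizontal axis, drawn at the middle of each match, with 1 line for each window. RCAN1 window 4 is the only line with a full CRE (diamond, over its 2 half-sites) and it holds 3 NFAT cores (squares), while SIK1 has 3 half-sites (bars).

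Array medians lay between 3.13 and 3.22 on the log2 scale. The single probe set of GPR39 read 2.58 ± 0.11 in agonist arrays, 2.58 ± 0.04 in GPR39 arrays and 2.47 ± 0.07 in mock arrays (SD, n = 3 each), dimmer than the 40th percentile on all 9 arrays, so the receptor label could not be checked from it. Where its probes lie is not known here, and a probe set outside the introduced sequence checks nothing. Mock replicate 1 correlated at a mean r of 0.984 with GPR39 arrays and at 0.979 with the other mock arrays, across tested probe sets, and the results of the 3 genes against mock are given without it as well. All 4 named HEK293 markers (IRS4, PAX2, VIM, LHX1) passed the filter, with a summed linear signal of 862 to 1226 in agonist, 939 to 964 in GPR39 and 1683 to 1786 in mock arrays. IRS4 carried most of that sum, with log2 means of 9.69 in agonist, 9.52 in GPR39 and 10.54 in mock arrays, while LHX1 averaged 5.98 in agonist, 5.99 in GPR39 and 5.86 in mock arrays. Leukocyte markers summed to 242 to 281 in agonist, 214 to 218 in GPR39 and 108 to 135 in mock arrays, mostly from the lysosomal gene CD68, which HEK293 cells also express, at log2 means of 7.90 in agonist, 7.56 in GPR39 and 6.66 in mock arrays. TYROBP had the same order, with 3.53 in agonist, 3.34 in GPR39 and 2.85 in mock arrays. LAPTM5 was highest in GPR39 arrays, at 3.26, and CD14 averaged 2.85 in agonist, 2.77 in GPR39 and 2.76 in mock arrays. Fibroblast markers DCN and LUM did not pass the filter (log2 means of 1.63 to 2.03). Of the other lists, APOA1 and TTR of 4 named hepatocyte markers and VWF and KDR of 3 named endothelial markers passed, with summed signals of 39.5 to 51.5 and 17.4 to 20.3 over all arrays. The part of these marker differences in the results below was not tested, and in bulk RNA fewer cells of a type and less RNA per cell cannot be told apart.

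SIK1 read 6.23, 6.53 and 6.32 on the agonist arrays, 5.15, 5.26 and 5.35 on the GPR39 arrays, and 4.92, 4.98 and 4.83 on the mock arrays (log2 signal). The 3 groups did not overlap, and the agonist arrays stood furthest apart. On the agonist arrays SIK1 was brighter than 84.1% to 85.9% of all probe sets, against 74.6% to 76.4% on GPR39 arrays and 70.5% to 72.5% on mock arrays. PCK1 read 3.32, 3.54 and 3.26 on the agonist arrays, 2.66, 2.74 and 2.74 on the GPR39 arrays, and 2.51, 2.63 and 2.45 on the mock arrays. It followed the same order of groups without overlap. All 3 mock values of PCK1 lay below the 40th percentile of their array (2.63 to 2.70), which is the level used to filter dim probe sets, and the GPR39 values lay just above it. RCAN1 read 4.51, 4.54 and 4.56 on the agonist arrays, 5.02, 4.92 and 5.31 on the GPR39 arrays, and 3.77, 4.13 and 3.98 on the mock arrays. RCAN1 was thus highest in the GPR39 group, with the agonist arrays between GPR39 and mock and no overlap.

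**Figure D2:**
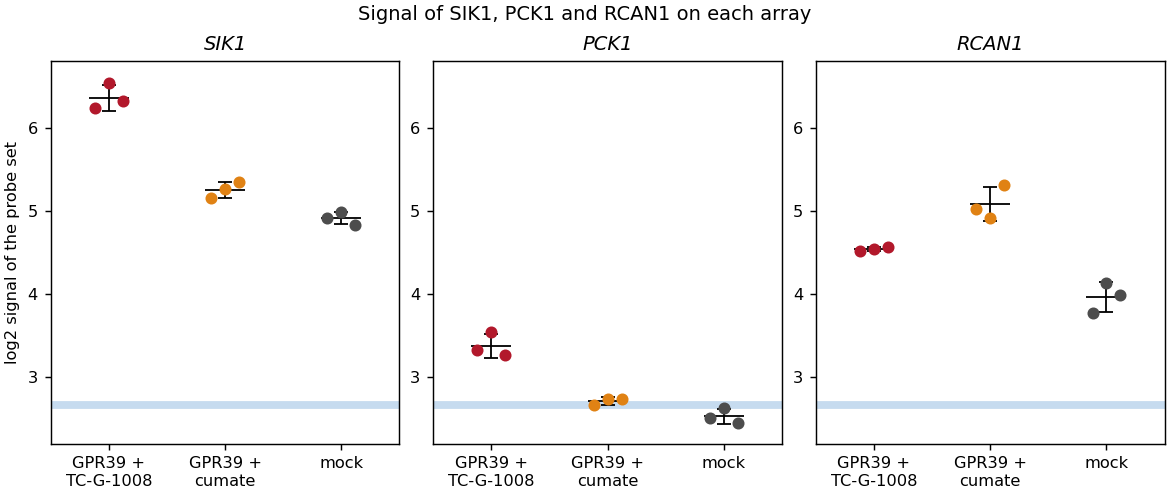
Log2 signal of each gene on each of the 9 arrays (points), by group, with the group mean and SD (bars), and the 40th percentile of the arrays as a blue band. SIK1 and PCK1 are highest in the agonist arrays, RCAN1 is highest in the GPR39 arrays, and the mock values of PCK1 lie below or at the band.

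Agonist arrays were set against GPR39 arrays for the difference that accompanied TC-G-1008 when both groups carried the receptor label. SIK1 rose 2.15-fold and PCK1 1.58-fold, while RCAN1 fell by 0.54 on the log2 scale. SIK1 averaged 6.36 ± 0.16 in agonist and 5.25 ± 0.10 in GPR39 arrays (SD, n = 3 each). Its log2 change was 1.11 ± 0.10 (SE; 95% interval 0.88 to 1.33; limma, Benjamini-Hochberg adjusted p = 0.00066). PCK1 averaged 3.37 ± 0.15 in agonist and 2.71 ± 0.05 in GPR39 arrays (SD, n = 3 each), a log2 change of 0.66 ± 0.09 (interval 0.45 to 0.87, limma adjusted p = 0.0045). RCAN1 averaged 4.54 ± 0.03 in agonist and 5.08 ± 0.20 in GPR39 arrays (SD, n = 3 each), a log2 change of -0.54 ± 0.12 (interval -0.83 to -0.26, limma adjusted p = 0.031). The spread of RCAN1 was wider in the GPR39 arrays than in the agonist arrays, with GPR39 replicate 3 the highest at 5.31. All 3 genes passed in this comparison, in which 9.06% of the 33376 probe sets tested passed, 3.12% higher and 5.95% lower. Their groups did not overlap, as for 29.9% of all tested probe sets. By p-value SIK1 ranked 142, PCK1 575 and RCAN1 2256 of 33376. The fall of RCAN1 missed the threshold in 5 of 9 fits that left out an array, with limma adjusted p of 0.087, 0.077 and 0.071 without agonist replicates 1, 2 and 3, and of 0.075 and 0.085 without GPR39 replicates 1 and 3. With 16 added before the log2 step the change of PCK1 was 0.23 and that of RCAN1 was -0.35, both still past the threshold.

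GPR39 arrays were set against mock arrays for the difference that accompanied the receptor label together with cumate. RCAN1 rose 2.17-fold. Its log2 change was 1.12 ± 0.12 (SE), from the averages 5.08 ± 0.20 in GPR39 and 3.96 ± 0.18 in mock arrays (SD, n = 3 each; interval 0.84 to 1.40, limma adjusted p = 0.0060). SIK1 averaged 5.25 ± 0.10 in GPR39 and 4.91 ± 0.08 in mock arrays, a log2 change of 0.34 ± 0.10 (interval 0.12 to 0.57) that did not pass (limma adjusted p = 0.16, n = 3 each). PCK1 averaged 2.71 ± 0.05 in GPR39 and 2.53 ± 0.09 in mock arrays (SD, n = 3 each). It was higher by at least 0.06 with the mock values set to the 40th percentile, and its fitted change did not pass either (limma adjusted p = 0.40). One of the 3 genes passed, against 1.17% of all tested probe sets (0.749% higher, 0.422% lower), and RCAN1 ranked 84 of 33376 by p-value. The groups did not overlap for any of the 3 genes, nor for 20.7% of all tested probe sets. Of all calls here 63.9% were higher, against 74.7% after centring on the 75th percentile, 51.4% with array weights and 31.4% without mock replicate 1, so the balance of calls turned round without that array. Without mock replicate 1 the log2 change of RCAN1 was 1.03 (limma adjusted p = 0.0093), that of SIK1 was 0.35, and SIK1 and PCK1 again did not pass, while the number of probe sets past the threshold was 1323 against 391 with it. That number was 129, 115 and 108 without GPR39 replicates 1, 2 and 3, and 139 and 196 without mock replicates 2 and 3. With 16 added before the log2 step RCAN1 changed by 0.66 and stayed past the threshold.

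Agonist arrays were set against mock arrays for the combined difference. SIK1 rose 2.73-fold (log2 change 1.45 ± 0.10, limma adjusted p = 7.1e-05). PCK1 rose by at least 0.73 on the log2 scale when mock values below the 40th percentile were set to it, with agonist and mock means of 3.37 and 2.53 and a limma adjusted p of 0.00074. RCAN1 rose 1.49-fold, with averages of 4.54 and 3.96 and a log2 change of 0.58 ± 0.12 (interval 0.29 to 0.86, limma adjusted p = 0.016). All 3 genes passed, where 15.0% of tested probe sets did (6.11% higher, 8.94% lower), and none overlapped between the groups, as for 31.0% of tested probe sets. Of all calls 40.6% were higher, and 56.2% after centring on the 75th percentile. Without agonist replicate 3 the change of RCAN1 was 0.56 and missed the threshold (limma adjusted p = 0.0505), and with 16 added before the log2 step it was 0.31 and the fitted change of PCK1 was 0.28, both past it. Without mock replicate 1 the changes were 1.45 for SIK1 and 0.48 for RCAN1, both past the threshold, as was PCK1 (limma adjusted p = 0.0034).

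**Figure D3:**
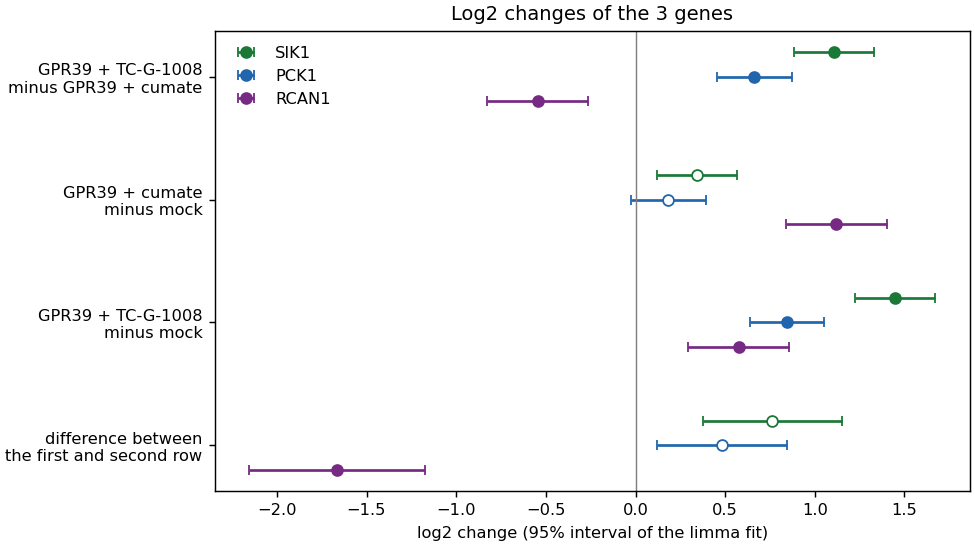
Log2 change of each gene with its 95% interval from the limma fit (horizontal axis), for the 3 comparisons and for the difference between the top pair of rows; filled points have an adjusted p below 0.05. RCAN1 lies at -0.54 where SIK1 and PCK1 lie at 1.11 and 0.66, and at 1.12 where they lie at 0.34 and 0.18; the PCK1 values against mock are fitted values.

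Whether the change with agonist differed from the change with receptor label and cumate was tested as the difference of those changes, in which the GPR39 arrays enter both. For RCAN1 the difference was -1.66 ± 0.21 (SE; interval -2.15 to -1.18, limma adjusted p = 0.015). For SIK1 it was 0.76 ± 0.17 (interval 0.38 to 1.15), which did not pass (limma adjusted p = 0.091), and for PCK1 the fitted difference, which uses mock values below the 40th percentile as measured, was 0.48 ± 0.16 (interval 0.12 to 0.84, limma adjusted p = 0.21). One of the 3 genes passed, against 1.03% of tested probe sets (0.434% higher, 0.593% lower). A larger change of SIK1 or PCK1 with agonist than with receptor label and cumate was therefore not established over all probe sets. The RCAN1 difference missed the threshold without GPR39 replicates 1, 2 and 3, with limma adjusted p of 0.078, 0.056 and 0.067.

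The genes were also compared with each other through their log2 difference on each array. SIK1 minus RCAN1 averaged 1.82 ± 0.15 in agonist, 0.17 ± 0.16 in GPR39 and 0.95 ± 0.17 in mock arrays (SD, n = 3 each). It was therefore higher by 1.65 in agonist than in GPR39 arrays, and differed by -0.78 between GPR39 and mock arrays, without overlap of arrays in either case. PCK1 minus RCAN1 was higher by 1.21 in agonist than in GPR39 arrays and differed by -0.94 between GPR39 and mock arrays, with the dim mock values of PCK1 taken as measured. SIK1 minus PCK1 was higher by 0.44 in agonist than in GPR39 arrays. Of 9 such tests, 8 gave an exact two-sided permutation p of 0.1, the smallest that 3 against 3 arrays allow, and 0.1125 after adjustment over the 9. PCK1 minus RCAN1 between agonist and mock overlapped (exact permutation p = 0.2).

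Across the 9 arrays, in 3 groups, SIK1 and PCK1 had a Pearson r of 0.992, whereas r was 0.245 for SIK1 and RCAN1 and 0.220 for PCK1 and RCAN1. The arrays fall into groups, so these values describe the order of groups and carry no test. PCK1 was the third of 12826 named probe sets in likeness to SIK1, after UAP1 (r = 0.993), an enzyme of UDP-N-acetylglucosamine synthesis, and the RNA host gene SNHG8 (r = 0.993). KDM6B, a histone H3 lysine demethylase gene, and the phosphatase gene DUSP1 followed, both at 0.99. Nearest to PCK1 after SIK1 were NDEL1 (r = 0.990), the sphingomyelin synthase gene SGMS2 (r = 0.989), LINC01128 (r = 0.989) and UAP1 (r = 0.987). RCAN1 had other neighbours. They were EFEMP1, an extracellular matrix gene (r = 0.978), ARHGEF35 (r = 0.976), NETO2 (r = 0.976), the annexin gene ANXA3 (r = 0.964) and ANXA2P2, an annexin pseudogene (r = 0.955). EFEMP1 averaged 6.36 in agonist, 6.82 in GPR39 and 6.11 in mock arrays, and ANXA3 7.29, 7.93 and 6.70. Both were highest in the GPR39 group, like RCAN1, which follows from choosing them by likeness to it.

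The paralogs showed which changes their families shared. SIK2, another kinase of the SIK1 family, averaged 8.46 ± 0.06 in agonist, 8.21 ± 0.06 in GPR39 and 8.09 ± 0.04 in mock arrays (SD, n = 3 each). Its change passed in agonist against mock (0.37 ± 0.07, limma adjusted p = 0.0078) and was 0.25 ± 0.07 in agonist against GPR39 (limma adjusted p = 0.053). SIK3 did not pass in any comparison, with log2 changes between 0.06 and 0.18, and PCK2, the mitochondrial isoenzyme of PCK1, did not either, with changes between 0.07 and 0.17. RCAN2 and RCAN3, calcineurin regulators related to RCAN1, were lower in agonist than in GPR39 arrays. RCAN2 averaged 5.69 ± 0.16 in agonist and 6.14 ± 0.08 in GPR39 arrays (SD, n = 3 each; log2 change -0.44 ± 0.10, limma adjusted p = 0.027). RCAN3 averaged 5.73 ± 0.13 in agonist and 6.47 ± 0.05 in GPR39 arrays (SD, n = 3 each; log2 change -0.73 ± 0.11, limma adjusted p = 0.0064). All 3 RCAN genes thus fell in agonist against GPR39. Against mock, RCAN2 and RCAN3 fell by 0.44 and 0.90 on the log2 scale in agonist arrays (limma adjusted p = 0.019 and 0.0013), where RCAN1 rose, and in GPR39 arrays their changes of 0.01 and -0.17 did not pass. Without single agonist or GPR39 arrays the call of RCAN2 against GPR39 was lost in 5 of 9 fits.

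Among CREB and cAMP target genes, 19 of 37 listed genes were tested. The list was chosen with earlier results of these data known, so its counts carry no test. Of the 17 other than SIK1 and PCK1, 5 rose and none fell in agonist against GPR39, with a median log2 change of 0.20 against 0.01 over all tested probe sets, of which 3.12% rose and 5.95% fell. FOSB and FOS, AP-1 subunit genes, averaged 8.43 ± 0.13 and 6.78 ± 0.09 in agonist arrays, against 5.77 ± 0.06 and 5.03 ± 0.21 in GPR39 arrays (SD, n = 3 each; log2 changes 2.66 ± 0.12 and 1.75 ± 0.11). JUNB, another AP-1 subunit gene, rose by 1.57 ± 0.12, DUSP1, a phosphatase of MAP kinases, by 1.34 ± 0.07, and IRS2, an insulin receptor substrate and the fifth, by 0.70 ± 0.14. The other probe set of FOS changed by 0.76 ± 0.20 and did not pass (limma adjusted p = 0.053), while that of FOSB rose by 1.22 ± 0.16. FOS, FOSB, JUNB and DUSP1 are also known targets of MAP kinase signalling. In GPR39 against mock, 2 of these 17 genes rose, where 0.749% of all tested probe sets did, JUNB by 1.19 ± 0.12 and DUSP1 by 0.40 ± 0.07. FOS changed by -0.74 ± 0.11, and its other probe set by -0.06 without passing. The DUSP1 call was lost in 8 of 9 fits that left out an array and that of FOS in 3. In agonist against mock 8 of the 17 rose and none fell, against 6.11% and 8.94% of all tested probe sets, with FOSB at 2.83 ± 0.12, JUNB at 2.75 ± 0.12 and DUSP1 at 1.74 ± 0.07. The step difference passed for FOS, FOSB and DUSP1, at 2.49 ± 0.19, 2.48 ± 0.20 and 0.94 ± 0.11, the last lost without any 1 of the GPR39 arrays.

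Of calcium, calcineurin and NFAT target genes, 14 of 29 listed were tested. This list too was chosen with earlier results known, and its counts carry no test. Of the 13 other than RCAN1, 5 rose and 1 fell in agonist against GPR39, with a median log2 change of 0.21, where 3.12% of all tested probe sets rose and 5.95% fell. The activity-regulated gene ARC averaged 7.76 ± 0.13 in agonist and 4.85 ± 0.05 in GPR39 arrays (SD, n = 3 each; log2 change 2.91 ± 0.11). The chemokine gene CXCL8 rose by 2.95 ± 0.19, the cytokine gene IL11 by 2.17 ± 0.17 and the zinc finger transcription factor gene EGR4 by 1.29 ± 0.15. EGR3, the other riser, rose by 1.08 ± 0.13, and RCAN2 was the gene that fell. RCAN1 therefore moved opposite to most members of its list that passed in this comparison. In GPR39 against mock, CXCL8 and LIF, a cytokine gene, were the risers among the 13, where 0.749% of all tested probe sets rose. CXCL8 rose by at least 2.35, to 5.18 in GPR39 against 2.69 in mock arrays, 1 of which lay below the 40th percentile, and LIF by 0.61 ± 0.07, a call lost without any 1 of the GPR39 arrays. In agonist against mock, 7 of the 13 rose and RCAN2 fell, against 6.11% and 8.94% of all tested probe sets, among them CXCL8 by at least 5.30, IL11 by 2.87 ± 0.17, ARC by 2.87 ± 0.11 and EGR3 by 1.52 ± 0.13. The step difference of ARC was 2.94 ± 0.19, opposite in sign to that of RCAN1. With 16 added before the log2 step, CXCL8 changed by 1.21 in GPR39 against mock and by 3.71 in agonist against mock, LIF by 0.35, EGR4 by 0.60 in agonist against GPR39 and EGR3 by 0.89 in agonist against mock, all still past the threshold.

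**Figure D4:**
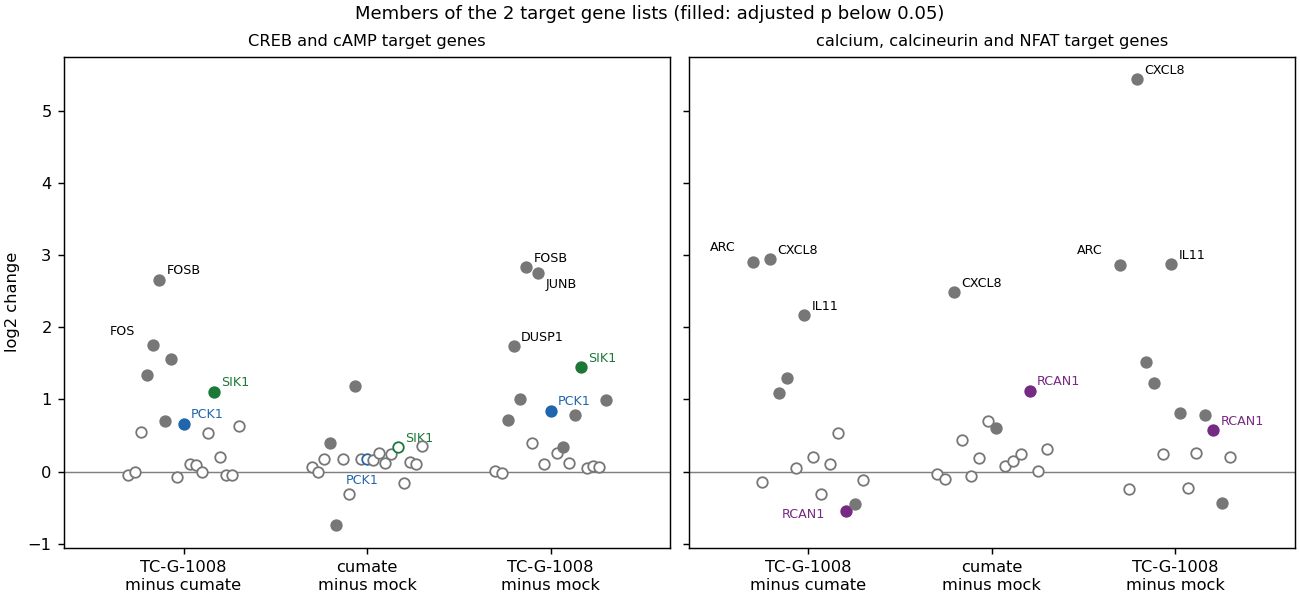
Fitted log2 changes (vertical axis) of each tested gene of the CREB list and the calcium list in agonist minus GPR39 with cumate, GPR39 with cumate minus mock, and agonist minus mock, where cumate on the axis stands for the GPR39 group; filled points passed. SIK1 (green) and PCK1 (blue) lie among the risers of agonist minus GPR39, at 1.11 and 0.66, while RCAN1 (purple) lies below 0 there and at 1.12 in GPR39 minus mock.

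Genes that build the pathways were counted in the same way. Of 26 tested cAMP and CREB pathway components, 2 rose and 1 fell in agonist against GPR39, the CREB-family genes CREB5 by 0.47 ± 0.08 and CREB3L2 by 0.54 ± 0.12, and POPDC1, a cAMP-binding membrane protein gene, by -0.42 ± 0.07. These counts are near the share of all tested probe sets that passed, 9.06%, and nothing about the components is read from them. The call of CREB3L2 was lost without any 1 of the 6 arrays compared. None passed in GPR39 against mock. In agonist against mock 5 rose, where 15.0% of all tested probe sets passed and 6.11% rose, and 2 to 4 rose when 1 array was left out, among them CREB5 by 0.65 ± 0.08, CREB3L2 by 0.79 ± 0.12, the CREB coactivator gene CRTC2 by 0.35 ± 0.08 and CREM by 0.72 ± 0.19, the last with a limma adjusted p of 0.039. The CREM call was lost in 8 of 9 fits that left out an array and that of CRTC2 in 4. Of 16 tested Gq, calcium and calcineurin components, 3 fell and none rose in agonist against GPR39, RCAN2, RCAN3 and CAMK2D, a calcium and calmodulin dependent kinase gene, by 0.62 ± 0.12. The same 3 fell against mock, CAMK2D by 0.95 ± 0.12, and none passed in GPR39 against mock. Leaving out 1 array ended the call of CAMK2D against GPR39 in 4 of 9 fits and that of RCAN2 against mock in 4. With 16 added before the log2 step CAMK2D changed by -0.36 against GPR39 and by -0.58 against mock, both past the threshold. Of 5 tested gluconeogenic genes, PCK1 alone passed, in both comparisons with agonist.

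SIK1 and RCAN1 share chromosome 21. Of 145 named probe sets tested there, 7 were higher and 10 lower in agonist against GPR39, 4 and 0 in GPR39 against mock, and 14 and 12 in agonist against mock, with median log2 changes of 0.03, 0.01 and 0.01. Of all 12827 named probe sets tested, 460 were higher and 1190 lower, 139 and 72, and 992 and 1740 in the same comparisons, so nothing particular to the chromosome is read from its counts.

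**Figure D5:**
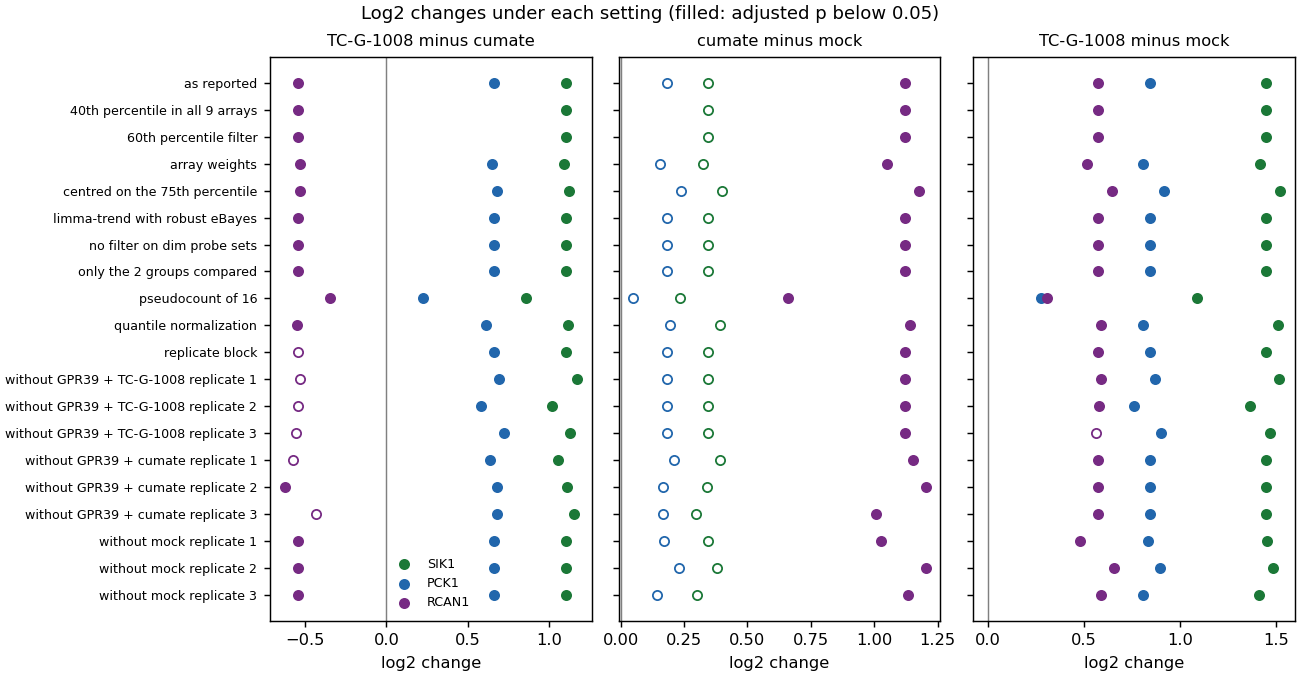
Log2 change of each gene (horizontal axis) in the 3 comparisons as reported and under each other setting, 1 line for each, where cumate in the panel titles stands for the GPR39 group; filled points have an adjusted p below 0.05. No point crosses 0, SIK1 and PCK1 in agonist minus GPR39 stay filled wherever tested, and RCAN1 turns open there with the replicate block and without 5 of the arrays.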

How the data were processed

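Total RNA was labelled with biotin and hybridised to 9 single-colour Affymetrix arrays, per the labels' protocols. Per probe set the authors deposited a log2 signal, a scale inferred from the range of 0.717 to 13.5. The submitters' processing notes name MAS5. How background, normalization between arrays and the log step were handled was not given in the sources available. The platform annotation names 16098 of 53617 probe sets, and symbols were updated by Entrez identifier through RefSeq (GRCh38.p14). The test covered 33376 probe sets that exceeded the array's 40th percentile on 3 or more of the 9 arrays. One limma 3.58.1 model (R 4.3.3, lmFit and eBayes) held all arrays. Its two-sided p-values were adjusted over every tested probe set by Benjamini-Hochberg, with 0.05 as the threshold. Errors after changes are standard errors and errors after levels are SDs. Arrays give no read depth, and their number limits the precision. The fit was tested on simulated data. List members use their brightest tested probe set. Named list genes are up to 4 per comparison with the smallest p among those past the threshold, and genes most like a gene are the 5 with the highest r. IRS2, EGR3 in agonist against GPR39, and the other probe sets of FOS and FOSB fall outside that rule and were chosen after their values were seen. The genes, lists and tests were chosen with earlier results of these data known. Promoter sequences are from RefSeq (GRCh38.p14). SIK1 and RCAN1 matched and PCK1 did not. Alternatives were other scalings, filters, spread estimates, array weights, a replicate block, an added 16, and leaving out each array.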

Additional observations from a re-analysis of the deposited data

How the results depend on the processing

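SIK1, PCK1 and RCAN1 kept their direction under every alternative run, and 204 of 217 values kept their side of the threshold. PCK1 was not tested with the 60th percentile filter or with the 40th percentile required on all 9 arrays, each gene had a single probe set, and the difference between steps needs all 3 groups. The SIK1 step difference passed with array weights (0.76, limma adjusted p = 0.047) and with 16 added (0.62, limma adjusted p = 0.041). With the replicate block RCAN1 missed the threshold in agonist against GPR39 (-0.54, limma adjusted p = 0.058) and in the step difference (-1.66, limma adjusted p = 0.059). Leaving out single arrays gave RCAN1 changes of -0.63 to -0.43 in agonist against GPR39, 0.48 to 0.66 in agonist against mock and -1.83 to -1.44 in the step difference. Those fits have fewer arrays, and the cause was not tested otherwise.

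The number of probe sets past the threshold moved more. In GPR39 against mock it was 637 with the 60th percentile filter, 969 with array weights, 663 with limma-trend, 190 with only those 2 groups, 765 with 16 added and 150 with the replicate block, against 391. The step difference gave 608, 740, 658, 768 and 76 under the same settings but the 2-group fit, and 187 without a filter, against 343. Agonist against GPR39 gave 1819 with the replicate block, against 3025, and agonist against mock 3133 with only those 2 groups, against 5022. Leaving out single arrays gave 108 to 1323 in GPR39 against mock, 1509 to 3119 in agonist against GPR39 and 48 to 776 in the step difference, lowest without a GPR39 array in each and highest without mock replicate 1 in each. Over all alternatives, members and paralogs included, CREB targets higher numbered 6 to 8 in agonist against GPR39, 1 to 2 in GPR39 against mock and 7 to 11 in agonist against mock, and calcium targets higher 4 to 6, 2 to 4 and 7 to 9. Calcium targets lower numbered 0 to 2 in agonist against GPR39. Of the cAMP and CREB components 1 to 3 were higher in agonist against GPR39 and 2 to 5 in agonist against mock, and of the Gq, calcium and calcineurin components 1 to 3 and 2 to 5 were lower. Without mock replicate 1, agonist against mock gave 9 CREB targets higher, 9 calcium targets higher with none lower, and 3 cAMP and CREB components higher, and GPR39 against mock gave 2 CREB and 4 calcium targets higher. Of 37 named list gene results 10 lost their call under at least 1 alternative and none changed direction. Replicate numbers did not pair the arrays. Correlations of deviations between same-numbered arrays ran from -0.10 to 0.06, and an array correlated best with its own number in 2 of 18 cases.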
